A study of Mus musculus with 21 samples.

Results

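A set of 10 genes of the skeletal muscle sarcomere and of fast muscle fibres was followed in newborn mouse skin: Acta1, Actn3, Ckm, Myh1, Myh3, Myh8, Mylpf, Tnnc2, Tnni2 and Tnnt3. They were chosen by symbol, by a rule that uses no measured value but with earlier results of these data known, and all 10 were found among the 24391 gene symbols counted in each of the 21 libraries. The libraries were made from total RNA of the brain, liver and skin of newborn (P0) C57BL/6 mice (C57BL/6J by the study's methods), 1 library per tissue and mouse. The KI group was 2 mice heterozygous for a Jak1 knock-in (Jak1 KI +/-), and the WT group was 5 wild-type mice. The knock-in allele, made by CRISPR-Cas9, replaces a histidine with aspartate in the kinase-like part of Jak1 and carries silent changes in neighbouring codons. The line descends from a mosaic founder, and counts per gene hold no allele, so genotypes were not checked here.

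Mouse skin is backed by a sheet of striated muscle, the panniculus carnosus, and body-wall muscle lies under it, so that a piece of whole skin holds muscle RNA as well as RNA of epidermis, dermis and fat. In striated muscle, myosin heavy chains of the thick filament pull on actin of the thin filament, and the troponin complex switches this contact on when calcium is released. Heavy chains are exchanged during development: Myh3 encodes the embryonic form and Myh8 the perinatal form, and adult fast fibres use Myh1, Myh2 and Myh4.

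The genes of the 3 heavy chains lie in 1 cluster on chromosome 11. In build NCBIM37 (mm9), Myh3 spans chr11:66891802-66915793, Myh1 chr11:67013554-67038078 and Myh8 chr11:67090626-67122136, all on the plus strand. Myh2 lies between Myh3 and Myh1, and Myh4 lies between Myh1 and Myh8. Tnni2 and Tnnt3 are also neighbours, 54425 bases apart on chromosome 7 with Lsp1 between them. Acta1 spans chr8:126415669-126418651 on the minus strand. The 250 bases upstream of the start of 4 genes are printed because they belong to the most abundant of the 10 genes and to the heavy chains whose proportions are compared below. They are RefSeq sequence of build GRCm38.p6, at chr8:123894776-123895025 for Acta1 (minus strand) and, on the plus strand, at chr11:67078050-67078299 for Myh3, chr11:67276874-67277123 for Myh8 and chr11:67199852-67200101 for Myh1. Capitals mark matches, on either strand, to TATAAA, to the CArG motif bound by serum response factor and to the MEF2 motif.
Acta1: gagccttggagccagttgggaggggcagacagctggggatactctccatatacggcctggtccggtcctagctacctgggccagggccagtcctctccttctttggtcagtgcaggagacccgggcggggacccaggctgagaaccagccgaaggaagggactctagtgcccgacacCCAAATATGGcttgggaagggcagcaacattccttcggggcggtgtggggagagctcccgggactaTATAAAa
Myh3: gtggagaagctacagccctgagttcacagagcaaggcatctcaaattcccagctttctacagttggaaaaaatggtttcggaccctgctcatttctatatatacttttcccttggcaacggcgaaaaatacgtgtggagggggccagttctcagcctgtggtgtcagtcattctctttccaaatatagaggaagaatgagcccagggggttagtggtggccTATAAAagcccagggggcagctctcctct
Myh8: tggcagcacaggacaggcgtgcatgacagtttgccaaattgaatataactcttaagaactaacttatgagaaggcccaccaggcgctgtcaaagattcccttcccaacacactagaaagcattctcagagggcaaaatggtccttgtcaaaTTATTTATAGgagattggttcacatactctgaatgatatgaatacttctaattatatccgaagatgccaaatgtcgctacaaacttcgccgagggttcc
Myh1: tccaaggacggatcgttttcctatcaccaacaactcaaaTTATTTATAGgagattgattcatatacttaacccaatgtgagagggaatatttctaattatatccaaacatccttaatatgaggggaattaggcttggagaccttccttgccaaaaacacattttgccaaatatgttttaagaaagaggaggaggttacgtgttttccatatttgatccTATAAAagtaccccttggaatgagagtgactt

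RefSeq windows were matched for 7 of the 10 genes, the other named windows being those of Ckm, Mylpf and Tnnc2. The CArG motif was found in 1 of 7 windows, that of Acta1, against 1.47% of all 32851 windows of this length. The MEF2 motif was found in 2 of 7 windows, those of Myh8 and Myh1, against 2.92% of all windows. Both matches read TTATTTATAG and lie inside a run of 22 bases that these windows share, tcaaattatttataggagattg, whose first base is 104 bases before the start of Myh8 and 216 bases before that of Myh1. TATAAA was found in 4 of 7 windows against 12.4% of all, and in Myh8 it overlapped the MEF2 match. The E-box CANNTG, bound by myogenic factors, was found in 6 of 7 windows against 66.2% of all. These matches describe the letters of the windows only.

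The 21 libraries held 26549326 to 38388133 counts on genes, and the 7 skin libraries 28637568 to 34900383. Several skin libraries stood apart. KI 2 and WT 5 were low in epidermal genes: Krt1, a keratin of the upper epidermis, was at 101 and 183 CPM there (CPM, counts scaled to an equal total on genes in every library) and at 978 to 5733 CPM in the other 5 skin libraries. The 7 epidermal genes measured summed to 902 CPM in KI 2 and 1501 CPM in WT 5, and to 4150 to 16443 CPM elsewhere. Ucp1, the uncoupling protein of brown fat, was at 172 CPM in WT 3 and at 1.01 CPM or less in the other skin libraries. WT 4, the library highest in most of the 10 genes, was also highest for 6 of the 7 epidermal genes and lowest for all 6 adipocyte genes, which summed to 840 CPM there and to 1853 to 5138 CPM in the other skin libraries. Of the 16163 genes tested in skin, 18.2% were highest and 23.6% lowest in WT 4. How far the tissue taken differed between these libraries was not tested.

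The 10 muscle genes made up between 0.669% and 2.54% of all counts in skin. The share was 1.67% in KI 1 and 1.34% in KI 2. In the WT mice 1 to 5 it was 1.51%, 0.669%, 1.67%, 2.54% and 2.03%. Both KI libraries thus lay inside the WT range, which was set by WT 2 at the bottom and WT 4 at the top. The mean share was 1.51% ± 0.234 (SD, n = 2) in KI and 1.68% ± 0.692 (SD, n = 5) in WT skin. Counting error was small beside this spread, the 95% Wilson interval of the lowest library being 0.666% to 0.672%. Such intervals cover counting error only. In bulk RNA a smaller share from fewer muscle cells and one from less RNA per muscle cell cannot be told apart.

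The share was far lower in the other tissues, at 0.00144% to 0.00746% of counts in brain and 0.000957% to 0.00116% in liver. Between WT skin and WT brain all 10 genes were called higher in skin (edgeR quasi-likelihood test, Benjamini-Hochberg adjusted p under 0.1), where 79.4% of the 17071 genes tested were called and 40.3% were higher in skin. Their log2 fold changes ran from 5.08 for Actn3 to 10.54 for Myh8, with a median of 9.25. Without WT 3, whose brain library is described below, Ckm moved from 10.08 to 11.85 and was the largest, Myh8 moved to 11.32, and Mylpf moved from 9.26 to 10.50. Between WT skin and WT liver all 10 were again called higher in skin, where 72.3% of genes were called and 39.8% were higher in skin, with a median log2 fold change of 11.24. Myh8 was at 0.0289 to 0.0664 CPM in WT liver, so its fitted fold change there depends on the prior count.

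**Figure D1:**
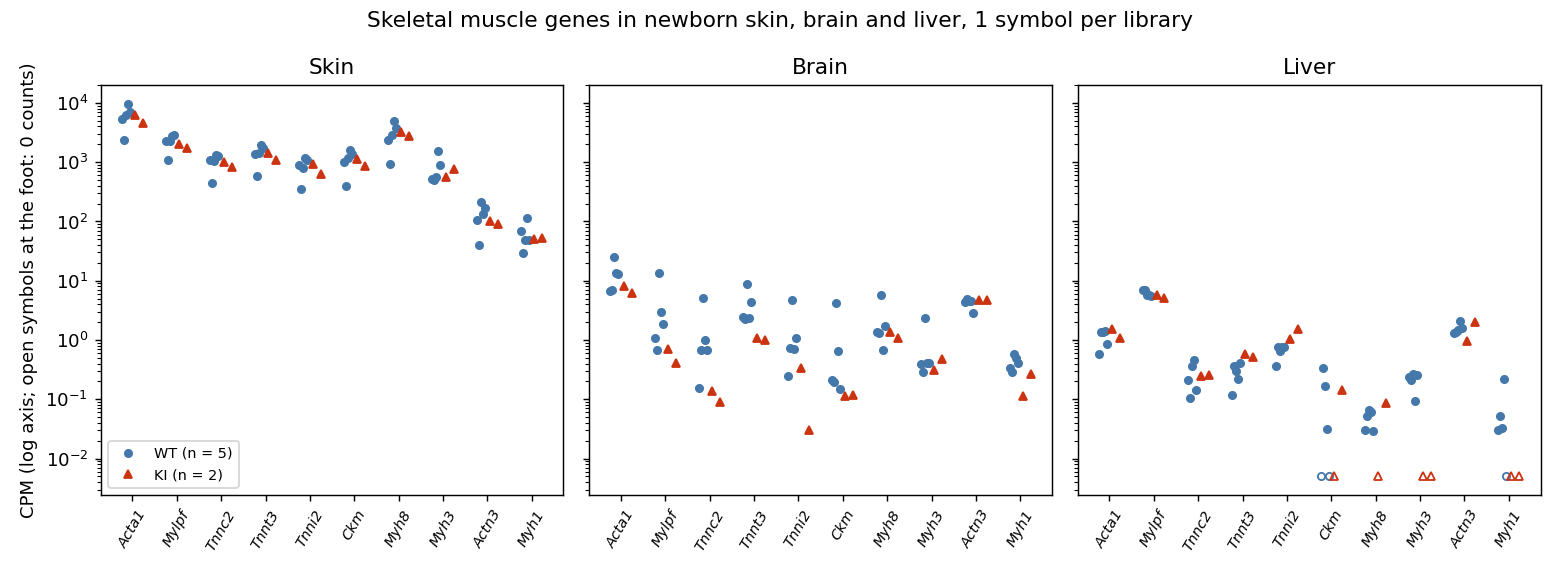
Levels of the 10 muscle genes in each of the 21 libraries, by tissue and genotype, in CPM on a log axis with 1 point per library. The skin libraries lie above the brain and liver libraries for all 10 genes, and the KI points lie among the WT points in skin.

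Acta1, the actin of the skeletal muscle thin filament, was the most abundant of the 10 genes in skin. It was at 6343 CPM in KI 1 and 4662 CPM in KI 2, and at 5448, 2339, 6179.8, 9738 and 7082 CPM in WT 1 to 5. The KI values fell among the WT values, and the WT libraries alone spanned a 4.16-fold range. Acta1 took 34.7% to 38.3% of the counts on the 10 genes in every skin library, so its part in the set was nearly constant while the set itself varied.

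The fast troponins switch contraction on and off: Tnnc2 binds calcium, Tnni2 inhibits the thin filament at rest, and Tnnt3 ties the complex to tropomyosin. Tnnt3 was at 1417 and 1093 CPM in the KI libraries and at 1372, 583, 1406, 1978 and 1704 CPM in WT 1 to 5. Tnnc2 was at 1012 and 815 CPM in KI and at 1069, 444, 1056, 1329 and 1274 CPM in WT. Tnni2 was at 934 and 635 CPM in KI and at 890, 353, 803, 1183 and 1073 CPM in WT. All 3 followed Acta1, with WT 2 lowest and WT 4 highest.

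Among thick filament genes, Myh8 was at 3173 and 2732 CPM in KI skin and at 2339, 928, 2903, 5011 and 3800 CPM in WT 1 to 5. Myh3 was at 570.5 and 753 CPM in KI and at 529.8, 502, 559.9, 1567 and 883 CPM in WT. Myh1 was at 49.9 and 52.4 CPM in KI and at 70.1, 29.1, 48.3, 113 and 49.3 CPM in WT. The perinatal chain was the most abundant of these in all 7 libraries, the embryonic chain came next and the adult chain was lowest. Myh3 departed from the others in WT 2, where it was only slightly under the next library. Mylpf, the fast regulatory light chain that sits on the myosin neck, was at 2005 and 1717 CPM in KI and at 2263, 1081, 2295, 2794 and 2870.0 CPM in WT, and was highest in WT 5.

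Actn3, the alpha-actinin that anchors thin filaments at the Z-disc of fast fibres, was at 104 and 89.6 CPM in KI and at 108, 39.9, 217, 133 and 166 CPM in WT 1 to 5. It had the widest range of the 10 genes, 5.44-fold, and was highest in WT 3. Ckm, the muscle creatine kinase that regenerates ATP beside the filaments, was at 1127 and 876 CPM in KI and at 1022, 393, 1184, 1591 and 1353 CPM in WT, again lowest in WT 2 and highest in WT 4.

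Divided by the length of the longest coding transcript, the mean levels over the 7 skin libraries fell in a fixed order. Acta1 was at 4129 ± 1566 CPM per kb (SD, n = 7), Mylpf at 2802 ± 812, Tnnc2 at 1429 ± 426, Tnnt3 at 1265 ± 411, Tnni2 at 1092 ± 362, Ckm at 762 ± 268, Myh8 at 485 ± 205, Myh3 at 127 ± 62.8, Actn3 at 42.5 ± 19.7 and Myh1 at 9.68 ± 4.37 CPM per kb. The SDs of several neighbours overlap, but each gene stood above the next one in 7 of 7 libraries. The merged exons of Tnni2 hold 1497 bases against 768 in its longest coding transcript, while Ckm has 1415 by either length. The order of Tnni2 and Ckm thus depends on the length used.

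**Figure D2:**
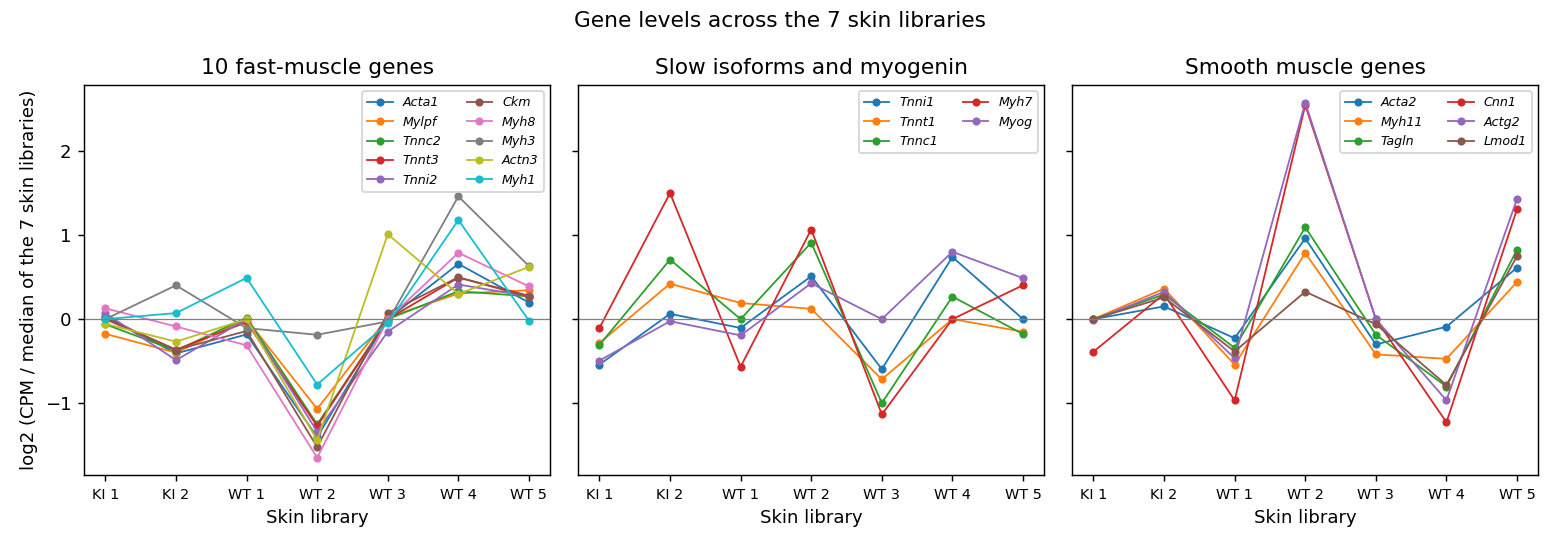
Level of each of the 10 genes in each skin library relative to its median over the 7 libraries, on a log2 axis, with slow isoforms, Myog and smooth muscle genes in panels beside them. All 10 genes are lowest in WT 2, and 8 are highest in WT 4.

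WT 2 was the lowest skin library for 10 of 10 genes, and WT 4 the highest for 8 of 10. Over all 16163 genes tested in skin, WT 2 was lowest for 6.4% and WT 4 highest for 18.2%. The part of the epidermal and adipocyte differences of WT 4 in its high values was not tested. The SD of log2 CPM over the 5 WT mice ran from 0.63 for Mylpf to 1.00 for Actn3, against a median of 0.26 over all genes, and exceeded that of 82.9% to 92.7% of genes. The 45 pairs of the 10 genes had a median Pearson correlation of log2 CPM of 0.896 over the 7 libraries (range 0.409 to 0.996), of 0.717 without WT 2 (range -0.128 to 0.983) and of 0.670 without WT 2 and WT 4 (range -0.852 to 0.983). Some pairs thus turned negative, the lowest being Actn3 with Myh1 in the first case and Myh8 with Myh1 in the second. These points share libraries, so the correlations are descriptions. Myh3 tracked the others least, with a median correlation of 0.659.

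Of the 10 other genes that best followed the mean level of the set over the 7 libraries, 3 were on the muscle lists used. These 3 were Eno3, Ldb3 and Pygm. Eno3, the muscle enolase, had r = 0.995. Tmem38a, a cation channel of the sarcoplasmic reticulum, had r = 0.994, and Ldb3, a Z-disc protein, r = 0.993. Klhl30, Trim54, Jsrp1, Sypl2, Pygm and Atp1b4 were also among the 10 closest, with r from 0.992 to 0.993. In all, 230 of 16153 genes (1.42%) had r over 0.9. Eno3 was at 924 and 778 CPM in KI skin and at 878, 354, 995, 1316 and 1109 CPM in WT 1 to 5, lowest in WT 2 like the members of the set.

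KI and WT skin were compared to see whether the muscle genes differed with the Jak1 genotype. None of the 10 genes was called between KI and WT skin by edgeR, where 0.0247% of the 16163 genes tested were called. DESeq2 called none of the 10 and 107 of the 16163 genes. None of the 10 had an unadjusted p under 0.05, against 4.57% of all genes. All 10 fitted log2 fold changes were below 0, from -0.45 (SE 0.560) for Actn3 to -0.014 (SE 0.557) for Myh8, each with an adjusted p of 0.999 by edgeR. Acta1 had -0.15 (SE 0.492) and Ckm -0.14 (SE 0.481). The median was -0.16 against -0.034 over all genes. The SEs, 0.379 to 0.560, were larger than the change for each of the 10 genes. Since the 10 genes moved together across libraries, they are not 10 independent signs. The sign was not stable. Without KI 2 and WT 5, the libraries low in epidermal genes, 6 of the 10 were above 0, with KI 1 as the only KI library. Acta1 had 0.10, Ckm 0.11, Myh8 0.19, Tnnt3 0.10, Tnni2 0.22 and Tnnc2 0.065. That exclusion was chosen after the data were seen. Without WT 4, 7 of the 10 were above 0, among them Myh3 at 0.13 and Myh1 at 0.084. Without KI 2 alone, which again leaves KI 1 as the only KI library, 5 of the 10 were above 0.

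The KI values lay within the WT range for 10 of 10 genes, as they did for 51.7% of all genes tested. Non-overlapping groups were found for 9.83% of genes in skin and for none of the 10.

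**Figure D3:**
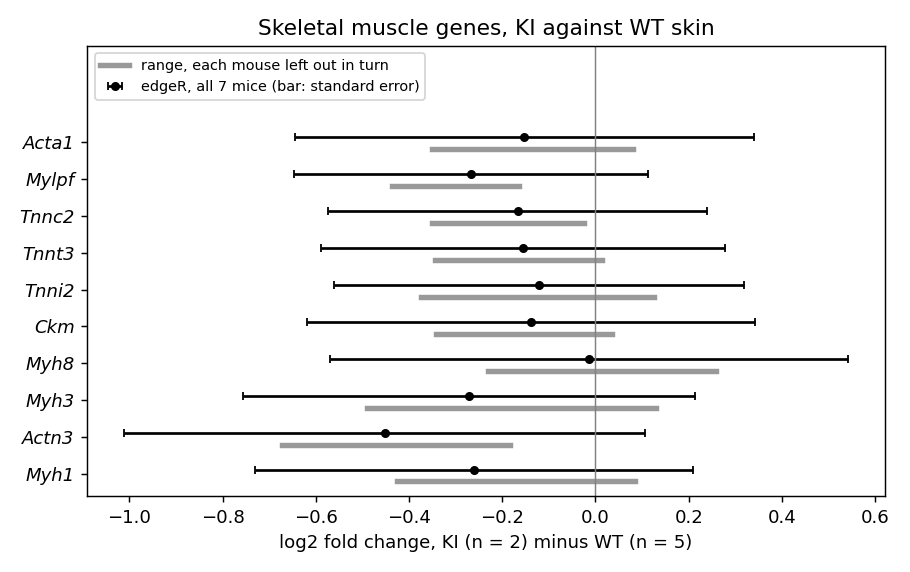
Log2 fold change of KI against WT skin for each of the 10 genes, from the edgeR fit (black points with bars of 1 SE), and its range when each mouse was left out in turn (grey bars). All 10 points lie below 0, between -0.45 and -0.014, and all 10 SE bars cross 0.

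The balance of embryonic, perinatal and adult heavy chains was compared as a ratio of counts within each library. Such a ratio does not scale with the amount of muscle if the makeup of that muscle is alike. Whether the makeup was alike in the 7 libraries was not tested. Per 100 counts of Myh8 there were 18.0 of Myh3 in KI 1 and 27.6 in KI 2, and 22.7, 54.0, 19.3, 31.3 and 23.2 in WT 1 to 5. WT 2 had the highest Myh3 relative to Myh8, although its own Myh3 level was the lowest of the 7 libraries. KI 1 had the lowest ratio of the 7 libraries, and KI 2 lay within the WT range. The log2 ratio of Myh3 to Myh8 was -2.17 ± 0.436 (SD, n = 2) in KI and -1.84 ± 0.587 (SD, n = 5) in WT, a difference of -0.33 (exact two-sided permutation test over 21 splits, p = 0.571, adjusted p = 0.857 over 3 ratios). With 1 library left out it ranged from -0.64, without KI 2, to -0.021, without KI 1, and it was -0.092 without WT 2. For Myh1 to Myh8 the difference was -0.31 (exact permutation p = 0.524, adjusted p = 0.857), ranging from -0.49 without WT 5 to -0.16 without KI 1, and for Myh3 to Myh1 it was -0.024 (exact permutation p = 0.952, adjusted p = 0.952). The smallest p that 21 splits allow is 0.0476. The sign of the last difference changed when some libraries were left out.

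Set against 6 heavy chains per transcript length (the 3 above with Myh2, Myh4 and the slow chain Myh7, which were chosen as partners with earlier results known), Myh8 made up 60.6% to 80.2%, with a median of 76.3%. Myh3 made up 14.7% to 33.4%, with a median of 18.2%. The adult fast chains were minor: Myh2 at 2.27% to 2.79%, Myh1 at 1.01% to 2.31% and Myh4 at 0.517% to 0.890%. Myh7 ranged from 0.125% to 1.37%, with its highest value in WT 2, where Myh8 was lowest at 60.6% and Myh3 highest at 33.4%. The RNA of these 6 genes was thus mainly that of Myh8, the perinatal chain, in each library more than the others together. Protein was not measured. Sequence sharing bears on these shares. Of 75-base windows of the transcript, 12.9% of Myh8, 16.6% of Myh1 and 1.86% of Myh3 occur in another gene, mostly other heavy chains. For Myh2 it was 16.3%, for Myh7 15.3% and for Myh4 9.68%. Counts of these genes are therefore uncertain, by an amount that was not tested.

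**Figure D4:**
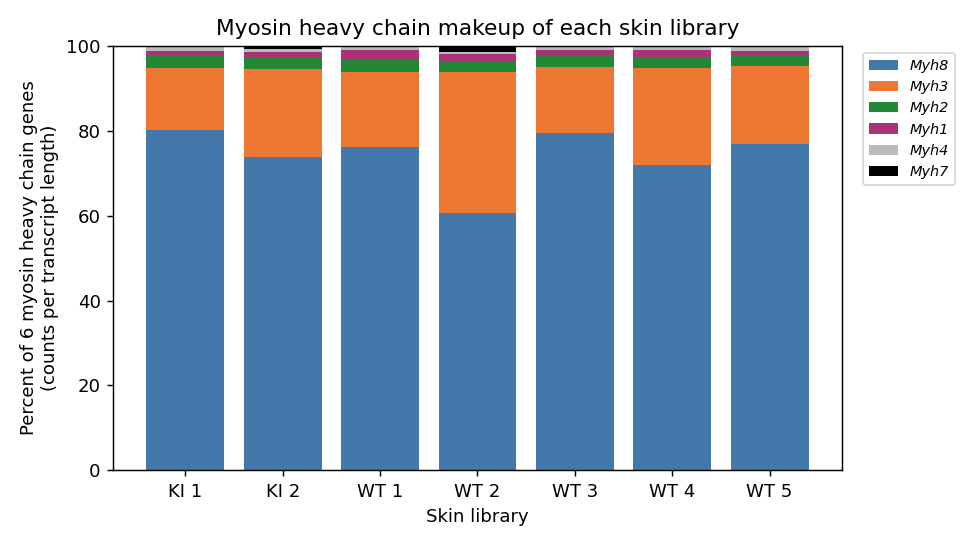
Share of each of 6 myosin heavy chain genes in their summed level per transcript length, in percent, for each skin library. Myh8 is the largest share in all 7 libraries, and WT 2 has the largest share of Myh3, 33.4%.

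Slow-fibre troponins were compared with the fast members in the same way. Tnni1, the slow partner of Tnni2, had 4.86 counts per 100 of Tnni2 in KI 1 and 10.9 in KI 2, and 6.90, 26.7, 5.45, 9.31 and 6.16 in WT 1 to 5. Tnnt1, the slow partner of Tnnt3, had 7.85 and 16.6 in KI and 11.3, 25.3, 5.87, 6.85 and 7.17 in WT. Tnnc1, also of heart, had 3.82 and 9.59 counts per 100 of Tnnc2 in KI and 4.48, 20.2, 2.27, 4.34 and 3.32 in WT. All 3 ratios were highest in WT 2 and next highest in KI 2. In CPM Tnni1, Tnnt1 and Tnnc1 of WT 2 were not low, at 94.0, 148 and 89.8 CPM, whereas the fast troponins there were. Other slow-fibre genes were low in WT 2. Mybpc1, a slow myosin-binding protein and the most abundant of the 11 slow-fibre genes, was at 274 CPM there against 577 to 1254 CPM elsewhere, and Casq2, a calcium store protein, was at 127 CPM against 204 to 399 CPM. The 11 genes summed to 1109 CPM in WT 2, the lowest of the 7 libraries. Tnni1 and Tnnc1 were named after their values had been seen.

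**Figure D5:**
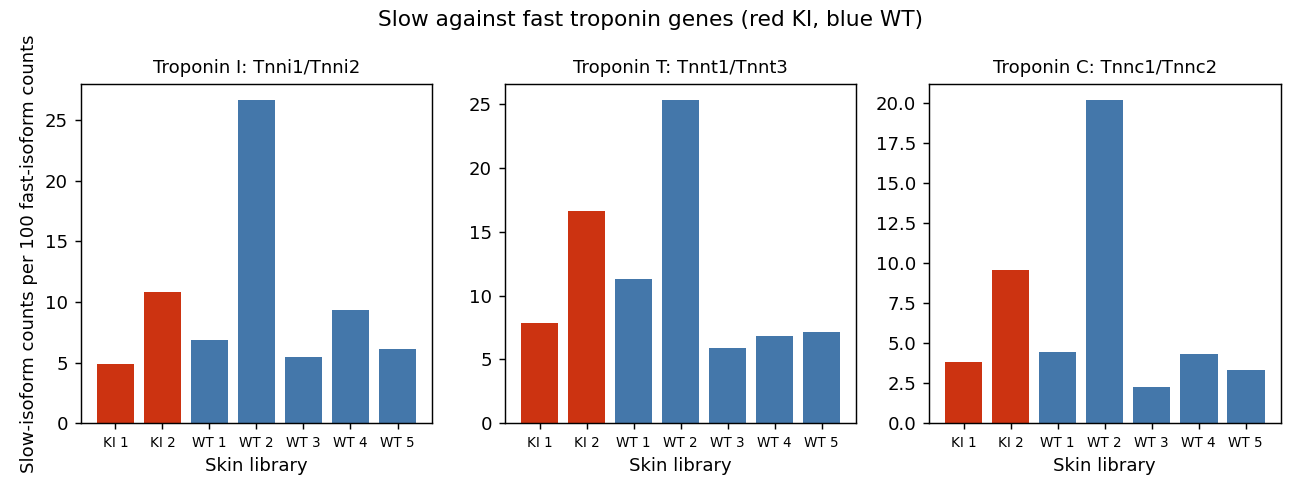
Counts of slow troponin genes per 100 counts of the fast partner in each skin library, for the inhibitory, tropomyosin-binding and calcium-binding subunits. The WT 2 library is highest for all 3 subunits, at 26.7, 25.3 and 20.2, and KI 2 is next.

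Lists of other muscle genes, chosen with results known, were described in the same libraries. All 9 fast myosins and partners, such as the light chain Myl1 and the calcium pump Atp2a1, were lowest in WT 2, as were all 8 genes of excitation-contraction coupling and 10 of 11 sarcomere scaffold genes. Atp2a1 was at 1064 and 824 CPM in KI and at 808, 310.4, 939, 1561 and 1159 CPM in WT 1 to 5. Of 11 slow-fibre genes only 3 were lowest in WT 2, of 7 junction genes 3, of 10 myogenic factors 4 and of 9 energy genes 6. Myog, a factor that starts muscle differentiation, was at 58.5 CPM in WT 2 and at 31.0 to 75.8 CPM in the other skin libraries. Chrng, the fetal subunit of the acetylcholine receptor, was at 7.39 to 20.1 CPM and Chrne, the adult subunit, at 0.0622 to 0.496 CPM (Chrne was named after its values were seen). No gene of these lists was called between KI and WT skin by edgeR or by DESeq2, and 0 had an unadjusted p under 0.05 by edgeR. Of all 16163 genes tested, edgeR called 0.0247% and DESeq2 called 107, and 4.57% had an unadjusted p under 0.05 by edgeR.

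Most smooth muscle genes measured were high in WT 2. Of 8 such genes, 6 were highest in WT 2, against 29.5% of all genes tested in skin, among them Actg2, a smooth muscle actin, at 202 CPM against 17.4 to 91.5 CPM in the other 6 libraries, and Cnn1, which binds actin in smooth muscle, at 67.2 CPM against 4.94 to 28.6 CPM. Both were named after their values were seen. Smtn, which binds smooth muscle actin, was instead lowest in WT 2, at 138 CPM against 147 to 205 CPM elsewhere. The 8 genes summed to 1909 CPM in WT 2, at the top of the WT range of 803 to 1909 CPM, and to 1000 to 1150 CPM in KI. Acta2, the smooth muscle actin of vessels and hair muscles, was at 759 CPM in WT 2 and at 317 to 596 CPM elsewhere. Of 10 cardiac genes, 1 was lowest in WT 2: Actc1, the cardiac actin that developing skeletal muscle also uses, at 803 CPM against 992 to 1943 CPM elsewhere. Myl4 was at 145 to 286 CPM and Tnnt2 at 43.8 to 88.8 CPM over the 7 libraries, both also used by immature skeletal muscle. The other 7 were at 4.41 CPM or less, among them Nppa at most 0.231 CPM, Myl7 at most 1.56 CPM and Myh6 at 0.946 to 3.86 CPM (these 3 were named after their values were seen). Whether the amount of smooth muscle in the sample contributed to the low values of WT 2 was not tested.

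Brain and liver held far fewer counts of these genes, and WT 3 stood apart in brain. There Acta1 was at 25.1 CPM against 6.73 to 13.5 CPM in the other 4 WT brains, and at 6.29 and 8.12 CPM in the KI brains. Mylpf was at 13.3 CPM in WT 3 brain and at 0.679 to 2.98 CPM in the other WT brains. Actn3 did not follow, at 4.48 CPM in WT 3 within a range of 2.83 to 5.01 CPM over all 7 brains. In liver Mylpf was the most abundant of the 10 genes, at 5.06 to 6.98 CPM, and Ckm, Myh3, Myh8 and Myh1 were listed at 0 in 3, 2, 1 and 3 of the 7 libraries, where a count of 0 allows up to 3 counts per library.

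Between KI and WT brain none of the 10 genes was called by edgeR, as was true of all 16322 genes tested (0%), of which DESeq2 called 604, while 2 of the 10 had an unadjusted p under 0.05 against 10.6% of all genes. DESeq2 called 1, Tnnt3, with an adjusted p of 0.0404. Tnnt3 was at 1.10 and 0.983 CPM in KI brains and at 2.49, 2.26, 8.96, 2.39 and 4.44 CPM in WT 1 to 5, a log2 fold change of -2.01 (SE 0.650, adjusted p = 0.358 by edgeR). The groups did not overlap, as was true of 4 of the 10 genes and of 27.3% of all genes tested in brain. Between KI and WT liver none of the 6 genes that passed the filter was called by edgeR, against 5.57% of 14966 genes (3.89% higher and 1.68% lower in KI). DESeq2 called none of the 6, and 1489 genes in all. With every gene of at least 1 count kept, all 10 were tested and Myh3 was called lower in KI (adjusted p = 0.0706 by edgeR). It had 0 counts in both KI livers and 3 to 9 counts in the WT livers, so the call rests on very few reads. Tnni2 alone had an unadjusted p under 0.05, against 17.9% of all genes. It was at 1.06 and 1.56 CPM in KI livers and at 0.361, 0.755, 0.664, 0.775 and 0.752 CPM in WT, a log2 fold change of 0.96 (SE 0.403, adjusted p = 0.258 by edgeR). Groups did not overlap for 2 of the 6 genes tested in liver, Tnnt3 and Tnni2, against 23.9% of all genes tested.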

How the data were processed

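Libraries were prepared by the authors from total RNA (TruSeq RNA v2, paired-end). By the study's methods skin RNA had lower integrity than that of samples named there as blood and liver. The integrity of brain RNA is not named there. The authors removed adapters and mapped the reads to the mm9 genome by TopHat2, and the submitters' notes name HTSeq. The annotation, counting mode and strand setting are not given in the sources used here. For each library the authors deposited raw counts per gene symbol, not normalized. Summary lines for unassigned reads were left out: 80.5% to 87.6% of uniquely aligned reads were on genes, and 1.15% to 2.19% were ambiguous between genes.

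Levels are CPM, counts scaled to an equal total on genes, and CPM per kb of the longest coding transcript of GENCODE vM1, chosen after merged exons of Myh8 were seen to include a longer model. Ckm overlaps A930016O22Rik and Tnnc2 overlaps Ube2c on the opposite strand, so their reads may be uncertain. KI and WT were compared within each tissue, and WT skin with WT brain and liver, by edgeR (4.0.16, R 4.3.3): filterByExpr, TMM and quasi-likelihood fits, with genes called at a Benjamini-Hochberg adjusted p under 0.1. DESeq2 1.42.0 was an alternative. Ratios (pseudocount 0.5) were compared by exact permutation with scipy 1.17.1. Fits were tested on simulated counts. Motifs were searched on both strands.

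The members, lists and tests were chosen with earlier results of these data known. Named were the 10 members, at most 4 genes per list by mean skin CPM, any list gene called, and the 10 genes most correlated with the mean log2 CPM (prior count 2) of the members. Flg was not analysed here. Of the most correlated genes, 1 is not reported here. Leaving out KI 2 and WT 5 was added after seeing the data. Replicates are separate mice within each tissue.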

Additional observations from a re-analysis of the deposited data

Results flagged for a closer look

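Of 39 sets of 5 WT libraries examined for a value far from the other 4, 12 held one, where chance gives about 1 in 20. Most were in brain, from the WT 3 library. There Ckm was at 4.26 CPM against at most 0.656 CPM in the other WT brains, Myh3 at 2.35 against at most 0.417 CPM, Myh8 at 5.78 against at most 1.69 CPM, and Tnni2 at 4.80 against at most 1.09 CPM. Mylpf was at 13.3 against at most 2.98 CPM, and Tnnc2 at 5.05 against at most 0.984 CPM. The 10 genes together were 0.00746% of counts in WT 3 brain and 0.00173% to 0.00274% in the other WT brains. These flags share 1 library and are not separate events.

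In liver Myh1 was at 0.217 CPM in WT 4, against at most 0.0521 CPM in the other WT livers, and Tnni2 was at 0.361 CPM in WT 1, against 0.664 to 0.775 CPM. Both rest on few counts: 7 of Myh1 in WT 4 against at most 2, and 12 of Tnni2 in WT 1 against 20 to 29. In skin WT 2 the slow counts per 100 fast counts were 26.7 for Tnni1 to Tnni2, 25.3 for Tnnt1 to Tnnt3 and 20.2 for Tnnc1 to Tnnc2, against at most 9.31, 11.3 and 4.48 in the other WT skins. Tnnt3 was lower in both KI brains than in every WT brain, with a KI mean of 1.04 CPM. It was higher in both KI livers than in every WT liver, at 0.520 to 0.590 against 0.120 to 0.405 CPM. Those liver values rest on 18 to 19 counts in KI and 4 to 14 in WT. Groups did not overlap for 27.3% of all genes tested in brain and 23.9% in liver. The difference between the tissues was not tested.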

How the results depend on the processing

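The WT tissue comparisons kept their direction and calls for all 10 genes under every alternative run. In skin the count of called genes, 4, was 0 with total counts only, 0 at adjusted p under 0.05, 107 with DESeq2, 23 with all 21 libraries, 0 without the libraries low in epidermal genes, and 0 to 1 with 1 library left out. In brain 0 became 604 with DESeq2, 614 with all 21 libraries and 0 to 1698 with 1 left out (1698 without WT 5). In liver 833 became 1489 with DESeq2, 242 with all 21 libraries, 383 at adjusted p under 0.05 and 56 to 1290 with 1 left out (56 without KI 2, 232 without KI 1, 1290 without WT 4). With 1 library left out of skin, the log2 fold change ranged from -0.35 to 0.081 for Acta1, -0.34 to 0.034 for Ckm, -0.49 to 0.13 for Myh3, -0.23 to 0.26 for Myh8, -0.43 to 0.084 for Myh1, -0.34 to 0.015 for Tnnt3, -0.37 to 0.12 for Tnni2, -0.67 to -0.18 for Actn3, -0.44 to -0.16 for Mylpf and -0.35 to -0.025 for Tnnc2. Without the libraries low in epidermal genes it was 0.10 for Acta1, 0.11 for Ckm, 0.19 for Myh8, 0.10 for Tnnt3, 0.22 for Tnni2 and 0.065 for Tnnc2, with KI 1 as the only KI library. With every gene of at least 1 count it was 0.0084 for Myh8. The Myh3 to Myh1 difference ranged from -0.22 to 0.14 with 1 library left out. Over all alternatives run, the lowest difference was -0.70 for Myh3 to Myh8 and -0.82 for Myh1 to Myh8. The KI to WT ratio of the muscle share ranged from 0.779 to 1.05 over the alternatives. Of the 10 genes most like the members, 4 were shared under deviations from genotype means. The causes were not tested.

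The replicate numbers pair KI and WT libraries only by name. Same-numbered libraries correlated at 0.190 and 0.0353 in skin, 0.0254 and -0.0855 in brain, and -0.0308 and -0.0956 in liver. Only numbers 1 and 2 hold both genotypes, so a blocked KI to WT difference rests on WT 1 and WT 2 among the WT mice. In skin WT 2 was the lowest library for all 10 genes. With the replicate block, 0 genes were called in skin and 2165 in brain, where 1 member, Tnnt3, had an adjusted p of 0.0877. In skin the block gave log2 fold changes of 0.70 for Acta1, 0.64 for Actn3, 0.74 for Ckm, 0.44 for Myh3, 1.09 for Myh8, 0.26 for Myh1, 0.57 for Tnnt3, 0.55 for Tnni2, 0.34 for Mylpf and 0.49 for Tnnc2 (adjusted p 0.910 to 0.937), and 0.17 for Myh3 to Myh1. For the WT libraries, deviations from the tissue mean were used. Those of same-numbered skin and brain libraries correlated at 0.00163 to 0.169, with 3 of 5 closest to their own number. For skin and liver it was 0.0210 to 0.134, with 4 of 5. The block changed no call of the 10 genes in the WT tissue comparisons.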

Other observations

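Pvalb, a calcium buffer of fast fibres, was named after its values were seen. It was at 6.999 and 2.27 CPM in KI skin and at 4.10, 0.626, 16.4, 4.10 and 15.1 CPM in WT 1 to 5. It was highest in WT 3 and next in WT 5, as Actn3 was, while most of the 10 genes were highest in WT 4.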
